A study of Homo sapiens with 18 samples.

Results

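The 4 H3K27me3 libraries of U937 cells described here are sgControl replicates 1 and 2 and DKO replicates 1 and 2, which are 4 of the 18 samples of the series. They were chosen by mark and genotype as the sample titles give them, and called domains were compared over chromosomes 1 to 22, with chromosome 7 set apart from the other 21. U937 is an established human acute myeloid leukaemia line. The sgControl cells carry a control guide, DKO cells lack SUV39H1 and SUV39H2, and SKO cells, given only for side-by-side values, lack SUV39H1. The series also mapped H3K9me3 in the same genotypes and SETDB1 in wild-type cells, and its title concerns how H3K9me3 set by the SUV39H enzymes limits an immune response to transposable elements. Whether the knockout cells were clones or pools, and whether replicates were separate cultures, is not stated in those labels, so the spread between libraries may be technical.

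H3K27me3 is laid down by Polycomb repressive complex 2, whose catalytic subunit is EZH2 and whose core partners are EED and SUZ12. It covers silent developmental genes, often from CpG-rich promoters, and in many cell types spreads over broad gene-poor domains. SUV39H1 and SUV39H2 set H3K9me3, the mark of constitutive heterochromatin, which also lies over zinc finger gene clusters.

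H3K27me3 covered more of the autosomes in DKO, in more and shorter domains. The sgControl libraries held 10324 and 9301 autosomal domains and the DKO libraries 13687 and 14279. They spanned 1021.74 and 1026.75 Mb (megabases) in sgControl and 1148.36 and 1123.77 Mb in DKO, so that the genotypes did not overlap and the mean rose by 10.9%. Domain widths fell: the N50, the width at which domains sorted from the widest down reach 50% of the covered bases, was 281.6 and 303.2 kb in sgControl and 207.2 and 188.8 kb in DKO. An exact two-sided permutation test gave p = 0.333 for each of these 3 measures, the smallest value that 2 libraries against 2 allow. The libraries held 49.0 and 47.3 M (mega) in-domain reads in sgControl and 65.7 and 45.5 M in DKO. These are reads inside called domains, not the depth of the libraries, which was not used here. On the 21 autosomes the Jaccard index, the shared length over the joint length of 2 lists, was 0.913 within sgControl, 0.901 within DKO and 0.709 to 0.715 between them.

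To locate the change, 10 kb bins were called marked where domains covered at least 50% of the bin. A bin was gained when marked in both DKO libraries and in neither control library, and lost in the opposite case. On the 21 autosomes 188.72 Mb was gained, 66.83 Mb was lost and 821.0 Mb was kept in all 4 libraries. Gained bins were 6.96% and lost bins 2.46% of all bins. Of the length marked in both control libraries 7.14% was lost, and of the length marked in neither 11.1% was gained. The 4 fits that each left out 1 library gained 203.66 to 211.68 Mb and lost 81.82 to 96.06 Mb. When every list was trimmed to the same covered length, 154.44 Mb was gained and 120.64 Mb lost, a setting that brings gain and loss toward balance by construction.

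The balance differed between chromosomes. Gain exceeded loss on 16 of the 21 autosomes. Chromosome 4 gained 24.66 Mb and lost 6.61 Mb, chromosome 13 gained 10.17 Mb and lost 0.74 Mb, and chromosome 21 gained 5.68 Mb and lost 0.77 Mb. Loss exceeded gain on chromosomes 16, 17, 18, 20 and 22. Chromosome 19 gained 3.17 Mb and lost 3.09 Mb, which was 21.98% of its control-marked length. Chromosome 17 gained 1.28 Mb and lost 2.9 Mb, and chromosome 22 gained 0.04 Mb and lost 1.14 Mb. Chromosome 7 lost 7.75 Mb, more than any other autosome.

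**Figure D1:**
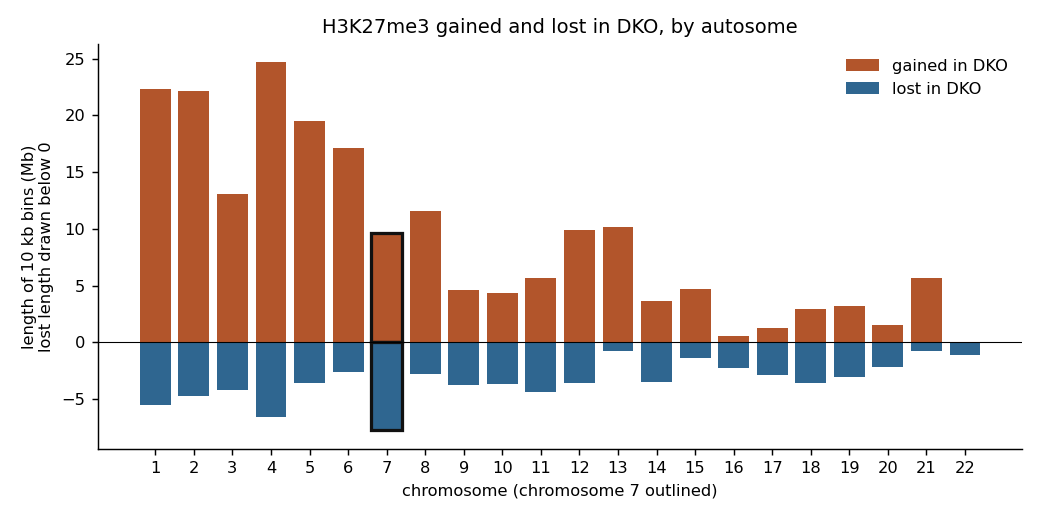
Length of 10 kb bins gained (above 0) and lost (below 0) in DKO against sgControl on each autosome, in Mb, from calls that required both libraries of each genotype. Chromosome 4 gained 24.66 Mb, and chromosome 7, outlined, gained 9.65 Mb and lost 7.75 Mb.

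Most of the gained length lay in long runs and away from control domains, although the typical gained run was short. The gains formed 3592 runs of adjacent bins with a median of 20 kb. Only 454 of these runs reached 100 kb, and they held 54.8% of the gained length. Of the gained length 33.5% adjoined a bin marked in both control libraries, while 61.5%, or 116.12 Mb, lay at least 50 kb from any such bin. The longest gained run was chr2:145420001-146950000 (hg38), 1530 kb without a protein-coding gene. It was followed by chr21:23700001-24990000, also without one. Only 29.8% of the gained length lay in bins that touch a protein-coding gene, against 52.2% of the control-unmarked length.

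The losses were short. They formed 3308 runs with a median of 10 kb, and 11.6% of their length lay in runs of at least 100 kb. Of the lost length 50.3% adjoined a kept bin, a share that was 75.7% without DKO replicate 1 and 75.5% without DKO replicate 2. The longest lost runs were chr9:78430001-78920000 and chr1:38280001-38630000, both without a protein-coding gene, and chr3:64510001-64860000 over ADAMTS9, which encodes a secreted metalloprotease. Bins touching a gene made up 42.4% of the lost length and 36.3% of the control-marked length.

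Narrow control domains were more often absent from DKO than wide ones. Such a gradient can follow from width alone, since a wider interval has more bases that may overlap. Of the intervals called in both control libraries on the 21 autosomes, 30.5% of the 1399 under 10 kb and 14.5% of the 5856 between 10 and 50 kb had no base in a domain of either DKO library. For widths of 50 to 200 kb the share was 1.59%, and 2 of the 1142 intervals of 200 kb and over were absent. Those widest intervals were covered over 95.8% and 95.4% of their length by the DKO libraries, in 2.11 pieces on average. In the other direction, 3593 of the 15307 intervals called in both DKO libraries, or 23.5%, had no base in a control domain, and 89 of these were 200 kb or wider.

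**Figure D2:**
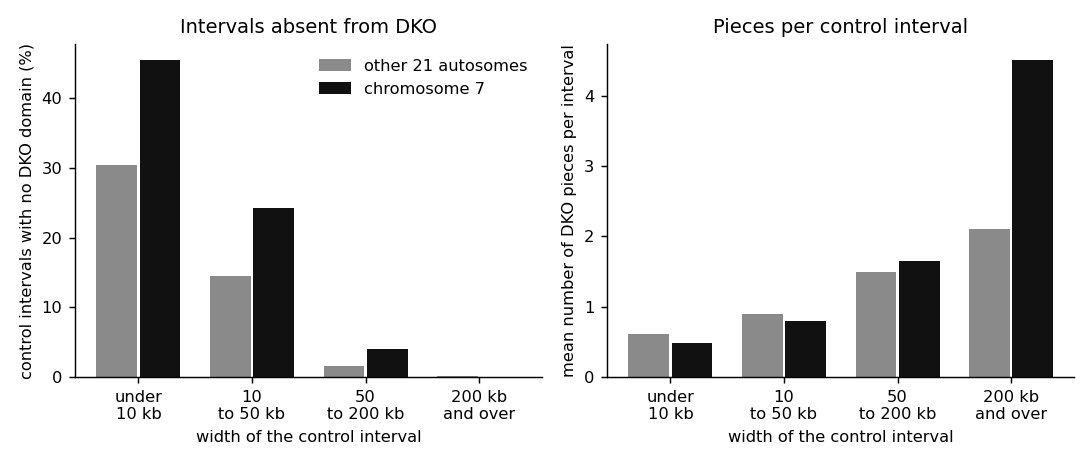
Intervals of H3K27me3 called in both sgControl libraries, grouped by width, with the share wholly without a DKO domain on the left (percent) and the mean number of DKO pieces per interval on the right. Grey bars are the other 21 autosomes and black bars chromosome 7, whose intervals of 200 kb and over were in 4.51 pieces against 2.11 elsewhere.

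Called domains on chromosome 7 were shorter and more numerous in DKO, with little change in covered length. It carried 627 and 548 domains in sgControl and 983 and 1116 in DKO, which spanned 61.5 and 61.6 Mb against 62.1 and 60.4 Mb. The N50 was 273.6 and 303.2 kb in sgControl and 126.4 and 92.8 kb in DKO. Domains of at least 200 kb held 60.4% and 61.1% of the covered length in sgControl and 32.0% and 25.8% in DKO. SKO kept wide domains there, with an N50 of 305.6 and 334.4 kb, and covered more than sgControl, at 75.04 and 74.8 Mb. None of the 80 control intervals of 200 kb and over on chromosome 7 was absent from DKO. These were covered over 89.2% and 87.4% of their length, in 4.51 pieces on average. Whether DNA copy number affected these domain calls, or the bin calls drawn from them, was not tested.

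By bins, chromosome 7 gained 9.65 Mb, 6.06% of its bins, and lost 7.75 Mb, 4.86% of its bins. The lost part was 12.9% of its control-marked length, the fourth highest share among the autosomes, whose others ranged from 1.58% on chromosome 13 to 21.98% on chromosome 19. The gained part was 10.2% of its control-unmarked length, rank 11 of 22. With lists trimmed to equal covered length, 6.68 Mb was gained and 12.88 Mb lost, the reverse order. The upper 50% of domains by score also reversed it, with 7.89 Mb gained and 10.84 Mb lost. Gain exceeded loss under the other settings. It did so only barely at 75% of a bin (8.46 and 8.44 Mb) and without DKO replicate 1 (10.75 and 10.74 Mb). The longest gained runs were chr7:117240001-117770000, with WNT2 and CFTR, the chloride channel gene of cystic fibrosis, chr7:20520001-20960000, with the transporter gene ABCB5, and chr7:116420001-116840000, with CAV1, a caveolae protein gene, and the receptor kinase gene MET.

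Read density inside domains was lower on chromosome 7 in DKO. In bins kept in all 4 libraries it was 0.971 and 0.968 reads per kb, scaled to 1 M in-domain reads, in sgControl and 0.733 and 0.748 in DKO. Divided by the median ratio of the 21 other autosomes, the DKO over sgControl ratio was 0.845, and the 4 pairs of libraries gave 0.842 to 0.847. The other autosomes lay between 0.909 on chromosome 18 and 1.20 on chromosome 6. Without a spike-in factor these ratios are relative to the rest of each library. The input samples were not analysed here, so the densities are not corrected for DNA copy number, and a difference in copy number and a difference in the mark cannot be told apart in them.

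The lower density, with the same limit on copy number, lay in the first 100 Mb, a border chosen after 10 Mb windows were seen. There the 10 windows had log2 ratios from -0.47 to -0.04 with a median of -0.40, and 8 of them lay below -0.3. The 6 windows beyond 100 Mb had -0.04 to 0.05. Among all windows of the other autosomes 10 lay below -0.3. In the windows of chromosome 7 the log2 ratio between replicates stayed within 0.05. Loss of domains was split in the same way. The first 100 Mb lost 6.22 of 39.48 Mb, or 15.8%, and the rest lost 1.53 of 20.52 Mb, or 7.46%, beside 7.14% on the 21 autosomes. Gained shares were 9.72% and 11.0% in these parts. H3K9me3 was lost over 67.5% of its control-marked length in the first 100 Mb and 44.8% beyond, against 25.1% on the 21 autosomes. The windows of H3K9me3 density in the first 100 Mb ranged from -0.44 to 0.22. An effect of copy number on the lost shares or the H3K9me3 values was not tested.

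**Figure D3:**
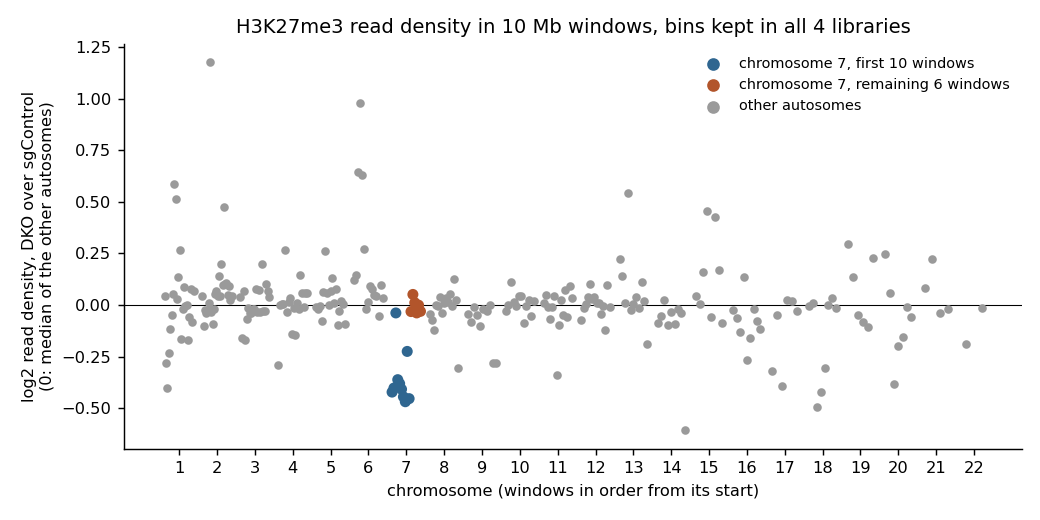
H3K27me3 read density, DKO over sgControl, as a log2 ratio in 10 Mb windows of each autosome, over bins kept in all 4 libraries, with 0 at the median of the other autosomes. The first 10 windows of chromosome 7 (blue) had a median of -0.40 and the remaining 6 (orange) lay between -0.04 and 0.05.

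Read density within domains present in both genotypes was tested next. The test used blocks, merged domains of the 4 libraries, in which every library had a domain. The shortest covered length among the libraries had to be at least 80% of the longest, and read counts were offset by covered length. With edgeR's quasi-likelihood test at a Benjamini-Hochberg adjusted p below 0.05, 640 of 2026 blocks on the 21 autosomes (31.6%) were higher in DKO and 624 (30.8%) lower, with a median log2 difference of 0.00 and quartiles of -0.08 and 0.10. The scaling by TMM centres these differences, so the even split and the median follow from it. On chromosome 7, 32 of 110 blocks (29.1%) were higher and 54 (49.1%) lower, with quartiles of -0.37 and 0.10. The 32 became 21 without sgControl replicate 1 and 21 without sgControl replicate 2, while 49 to 52 were lower in the fits that left out 1 library.

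H3K9me3 of the same genotypes was set beside these calls, since SUV39H1 and SUV39H2 write that mark. Bins that gained H3K27me3 were mostly H3K9me3 bins of the control cells. In the sgControl H3K9me3 libraries 66.9% and 65.1% of the gained length was marked, against 43.4% and 41.9% in the DKO libraries. Both control libraries marked 56.4% of the gained length, 54.0% of the kept length, 30.4% of the lost length and 13.7% of the length without H3K27me3 in any library.

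Gain was frequent wherever control cells had H3K9me3, both where DKO lost it and where DKO kept it. Among bins free of H3K27me3 in sgControl, 35.2% of the length where H3K9me3 was lost and 31.0% of the length where it was kept gained H3K27me3. The share was 6.96% where H3K9me3 was gained and 3.26% where neither genotype had it. Of the 188.72 Mb gained, 32.41 Mb lay where H3K9me3 was lost, 55.07 Mb where it was kept, 4.01 Mb where it was gained and 36.98 Mb where neither genotype had it. The remainder lay in bins where the H3K9me3 libraries of a genotype disagreed, which enter none of these 4 classes. Loss ran the other way. Of the length with H3K27me3 in sgControl, 13.3% was lost where neither genotype had H3K9me3, 5.45% where H3K9me3 was lost and 3.79% where it was kept. Neighbouring bins share domains, so these shares are descriptions and carry no test. On chromosome 7 the gained shares were 25.6% where H3K9me3 was lost, 14.4% where kept and 3.13% where in neither, and the lost shares 12.9%, 8.33% and 20.6%. The longest gained run on chromosome 2 was in H3K9me3 over 96.1% of its bins in both control libraries and 35.9% in both DKO libraries.

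**Figure D4:**
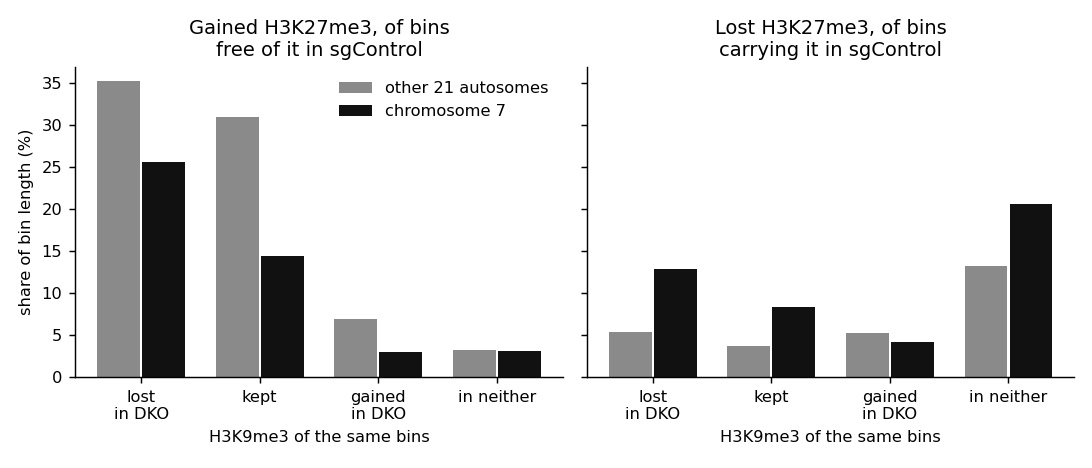
Share of bin length (percent) that gained H3K27me3, of bins free of it in sgControl (left), and that lost it, of bins carrying it (right), by what H3K9me3 did in the same bins. On the 21 autosomes (grey) gain was 35.2% where H3K9me3 was lost and 3.26% where it was in neither genotype, and chromosome 7 is black. Bins where the H3K9me3 libraries of a genotype disagreed are left out.

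SETDB1, another H3K9 methyltransferase, was mapped only in wild-type cells. Its peaks numbered 1.85 per Mb in gained bins, 6.54 in lost bins, 1.18 in kept bins and 6.03 in bins never marked. The level in lost bins was thus close to that in unmarked ones and above that in kept ones.

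For genes, the percentage of the body inside domains was taken in each library, and a gene was called when both libraries of a genotype lay at least 25 percentage points above both of the other. On the 21 autosomes 631 of 18184 genes (3.47%) gained H3K27me3 and 550 (3.02%) lost it, while 13866 were free of it in all 4 libraries. On chromosome 7, 33 of 938 genes (3.52%) gained and 42 (4.48%) lost it. Limma on the same percentages, adjusted by Benjamini-Hochberg over all autosomal genes, called 529 and 450 genes on the 21 autosomes and 30 and 40 on chromosome 7. It called 462 of the 631 and 343 of the 550, and 26 of the 33 and 29 of the 42. The order of gains and losses by gene was not stable: losses were more numerous at equal covered length (509 gained, 736 lost), at a gene difference of 10 points (770 and 835), without sgControl replicate 2 (659 and 674) and without DKO replicate 1 (669 and 671). Gained genes were long, with a median body of 57.4 kb against 24.9 kb for lost genes and 24.3 kb for all.

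On the 21 autosomes, the 8 longest genes that switched fully from 0% in both sgControl libraries to 100% in both DKO libraries were ADGRL2, a latrophilin adhesion receptor, SHROOM3, an actin regulator of epithelial shape, DCHS2, a large cadherin, ADAM23, a neuronal membrane protein, ADGRG6, an adhesion receptor of myelinating cells, WLS, the carrier of secreted Wnt proteins, HUNK, a kinase, and MROH9. In SKO these 8 genes were covered over 95.5% to 100% in every library. H3K9me3 at them did not move in 1 direction: it went from a mean of 90.1% to 41.0% of the body at ADGRL2 and from 22.4% to 81.0% at SHROOM3. On chromosome 7 the same full switch was seen at SEMA3C, a guidance cue gene, GNAI1, a G protein subunit gene, TSPAN12, a Wnt co-receptor gene of retinal vessels, and TMEM196. Each such gene had a limma adjusted p of 1.99e-05, the same for all because their libraries within a genotype did not differ.

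Full switches from 100% in both control libraries to 0% in both DKO libraries included ADAMTS9, GALNT8, a glycosyltransferase gene, IGFL4, LBH, a transcriptional cofactor of limb and heart, NPHS1, which encodes the podocyte protein nephrin, C8orf88, TRIM29 and SLC5A9, a sugar transporter gene. In SKO 7 of these were at 0% to 12.2%, while SLC5A9 kept 66.7% and 55.5%. On chromosome 7 FAM180A and AZGP1 switched fully, MMD2 went from 94.0% and 100% to 0%, and TMEM130 from 94.8% in both to 0%. FAM180A differed from AZGP1 in SKO, where it stayed at 100% in both libraries and AZGP1 was at 5.06% in both. The knockouts share the sgControl libraries, so their values are given side by side only.

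Promoter sequences were matched for 14301 of the 18184 genes, and those of switched genes spanned both CpG-rich and CpG-poor sequence. The 4 shown are a CpG-rich and a CpG-poor one of each direction, given as the 250 bases before the start site in RefSeq (GRCh38.p14), 5′ to 3′ on the gene's strand, with each CG dinucleotide in capitals. HOXD11 (chr2:176107030-176107279, plus strand) and SHROOM3 (chr4:76434979-76435228, plus strand) gained H3K27me3 over the promoter. MSX1 (chr4:4859415-4859664, plus strand) and NPHS1 (chr19:35852505-35852754, minus strand) lost it.
HOXD11: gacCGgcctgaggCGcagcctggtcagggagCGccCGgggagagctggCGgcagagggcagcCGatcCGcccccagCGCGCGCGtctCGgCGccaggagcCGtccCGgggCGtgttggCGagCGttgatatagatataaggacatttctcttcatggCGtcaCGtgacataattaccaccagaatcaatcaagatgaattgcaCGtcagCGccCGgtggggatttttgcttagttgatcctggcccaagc
SHROOM3: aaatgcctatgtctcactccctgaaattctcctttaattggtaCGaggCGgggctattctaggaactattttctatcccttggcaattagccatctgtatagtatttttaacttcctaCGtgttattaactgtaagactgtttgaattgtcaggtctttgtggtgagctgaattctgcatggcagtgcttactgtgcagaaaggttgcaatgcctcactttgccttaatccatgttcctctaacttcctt
MSX1: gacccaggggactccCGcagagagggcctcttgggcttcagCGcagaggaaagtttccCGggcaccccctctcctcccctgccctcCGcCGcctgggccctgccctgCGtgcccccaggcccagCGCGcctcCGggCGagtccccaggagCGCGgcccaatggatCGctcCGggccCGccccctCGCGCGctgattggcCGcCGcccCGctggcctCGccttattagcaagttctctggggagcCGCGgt
NPHS1: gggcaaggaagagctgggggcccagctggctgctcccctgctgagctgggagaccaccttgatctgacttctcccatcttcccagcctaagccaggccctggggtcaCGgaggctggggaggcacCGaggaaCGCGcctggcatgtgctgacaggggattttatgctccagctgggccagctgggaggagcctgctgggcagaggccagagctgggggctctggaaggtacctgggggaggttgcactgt
These stretches hold 23, 3, 24 and 4 CG dinucleotides. Over the 300 base window from 250 before to 50 after the start, promoters that gained the mark (334 of 14301, or 2.34%) had a median of 12 CG and promoters that lost it (294, or 2.06%) a median of 14, against 22 in promoters with neither call. At least 15 CG were found in 44.0%, 49.0% and 66.8% of these, and in 65.9% of all 14301. The group with neither call mixes marked and unmarked genes. By gene body, the 1161 genes covered over 90% in all 4 libraries had a median of 5 CG, with at least 15 in 34.0%. The 10962 genes free in all 4 had a median of 24, with at least 15 in 72.0%. Promoters that lost the mark thus had more CG than those of covered genes and fewer than those of free genes. CG reads the same on both strands.

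HOX genes, which set position along the body axis, gained H3K27me3 only as a block of HOXD. HOXD1, HOXD3, HOXD4, HOXD8, HOXD9, HOXD10 and HOXD11 were at 0% in both sgControl libraries and 100% in both DKO libraries over chr2:176107280-176190907. HOXD12 and HOXD13 next to them were at 0% in all 4. In all, 7 of 39 HOX genes (17.9%) gained and 0 lost the mark, beside 3.47% and 3.1% of all genes on the 22 autosomes. Of the 39, 37 could gain the mark and only 1 could lose it. The median change was 0 points in every list as over all genes, and the mean over the HOX list was 5.13% and 2.56% in sgControl and 20.5% in both DKO libraries. H3K9me3 covered the 7 HOXD genes over a mean of 79.7% in sgControl and 78.8% in DKO. In SKO they were covered over 96.7% in both libraries.

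Other homeobox regulators moved both ways, with 6 of 69 gained and 6 lost (8.70% each), beside 3.47% and 3.1% of all autosomal genes. Of the 69, 43 could gain the mark and 28 could lose it. OTX2, an eye and forebrain regulator, and SIX6, a retinal regulator, went from 0% to 100%, while MSX1, a craniofacial regulator, and NKX2-1, a lung and thyroid regulator, went from 100% to 0%. DLX5 and DLX6 on chromosome 7, both at 0% in sgControl, had 45.2% and 81.3%, and 100% and 70.0%, in DKO. In the list of SOX, FOX, TBX, ZIC, GATA and bHLH genes 4 of 69 gained and 4 lost (5.80% each), where 40 could gain and 30 could lose. WT1, a kidney and gonad regulator, rose from 0% to 100% and 95.9%, and HAND1, a heart regulator, fell from 100% to 0%. Signalling genes of the WNT, BMP, FGF and hedgehog families gave 4 and 4 of 67 (5.97% each), where 46 could gain and 20 could lose. WNT2 on chromosome 7 and GDF6 were at 0% in sgControl and 100% in DKO.

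Neuronal adhesion and guidance genes had gains and no losses. Of 54 measured, 7 gained (13.0%): ADGRL2, ADGRL3, EFNA5, SEMA3C, CNTN1, SLITRK5 and CNTNAP4. CNTN1, a contactin gene, was covered over 36.1% and 35.5% in sgControl and 95.2% and 93.7% in DKO. The list was already covered over a mean of 70.2% in both sgControl libraries, and reached 79.7% and 78.2% in DKO, with 26 genes over 90% in all 4. H3K9me3 over the same list had means of 49.9% in sgControl and 26.4% in DKO. Type II cadherins had 2 of 12 gained, CDH6 (0% to 100% and 97.0%) and CDH9, which varied between replicates (0% to 51.6% and 31.0%, limma adjusted p = 0.360). GABA and glutamate receptor genes had 4 of 42 gained (9.52%) and 2 lost (4.76%). Potassium channel genes had 3 of 93 gained (3.23%) and 7 lost (7.53%), beside 3.47% and 3.1% of all autosomal genes. Of the 93, 38 could lose the mark, and KCNF1 was at 100% in sgControl and 0% in DKO. The 10 other protocadherin genes had 1 gained and 2 lost, and the 19 ADAMTS metalloprotease genes 2 gained, among them ADAMTS5 (0% to 90.5% and 98.6%), and 3 lost. None of the 53 clustered protocadherin genes was called, while H3K9me3 over them went from a mean of 74.6% to 47.0%.

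Zinc finger genes of chromosome 19 gained H3K27me3 in clusters. Of 246 measured, 45 gained (18.3%) and 11 lost it (4.47%), whereas 7 of the 1205 other genes of the chromosome gained it and 59 (4.90%) lost it. The largest group was 23 of the 29 listed genes in chr19:19900946-23395471, which rose from a mean of 5.42% and 7.49% to 85.9% and 87.1%. ZNF626, ZNF737 and ZNF99 in it went from 0% to 100%, and ZNF91, a repressor of SVA retrotransposons, from 0% to 100% and 93.8%. Further groups of 5 of 12, 10 of 17 and 5 of 14 listed genes lay elsewhere on the chromosome. The means of each group are over its gained genes only. H3K9me3 stayed high in all 4 groups, at 78.7%, 100%, 100% and 97.4% in sgControl and 97.9%, 100%, 100% and 97.4% in DKO. In SKO the 23 genes were covered over 46.8% and 46.4%, and the group of 10 over 8.29% and 9.75% against 78.2% and 75.2% in DKO. The difference between DKO and SKO was not tested. The 11 losses became 17 without sgControl replicate 1. Of the zinc finger genes elsewhere 10 gained and 12 lost the mark, with ZNF10 at 0% in sgControl and SKO and 95.2% in both DKO libraries.

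Olfactory receptors changed by cluster too. Of 391 measured, 28 gained (7.16%) and 14 lost (3.58%), and the losses were 22 without DKO replicate 1. Of the 391, 134 could gain the mark and 261 could lose it. Over the 22 autosomes 664 of 16442 and 592 of 3074 such genes did so. All 11 listed genes in chr11:123753580-124041325 gained the mark, from 0% to a mean of 100% and 97.7%, as did 7 of 8 in chr14:19975591-20224702 and 5 of 7 in chr3:98147479-98472924. H3K9me3 over these 3 groups moved from 36.4% to 75.1%, from 3.36% to 40.8% and from 95.1% to 61.1%. Members of these families have near-identical relatives and bodies of few 800 bp steps, so single values are uncertain.

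Part of the keratin loci lost the mark. Of 94 keratin associated protein genes, which encode hair matrix proteins, 19 lost it (20.2%) and 0 gained it. Their means were 65.4% and 66.4% in sgControl and 43.6% and 44.3% in DKO, and 39 were over 90% in all 4 libraries. Of the 94, 62 could lose the mark, beside 592 lost of 3074 such genes on the 22 autosomes. Of the 19 lost genes, 9 lay in chr17:41159649-41265860, where 11 were measured, at a mean of 86.5% and 94.0% in sgControl and 0% in DKO. Of 55 keratin genes, of which 18 could lose the mark, 10 (18.2%) lost and 2 (3.64%) gained it. Of the 10, 9 lay close by in chr17:41346092-41586895, where 14 were measured. KRT9, KRT14, KRT32 and KRT33B among the 9 were each at 100% in both sgControl libraries and 0% in both DKO libraries. The gained KRT26 and KRT27 on the same chromosome went from 0% to 100%. H3K9me3 over the 9 keratin genes was 22.3% in sgControl and 5.14% in DKO.

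**Figure D5:**
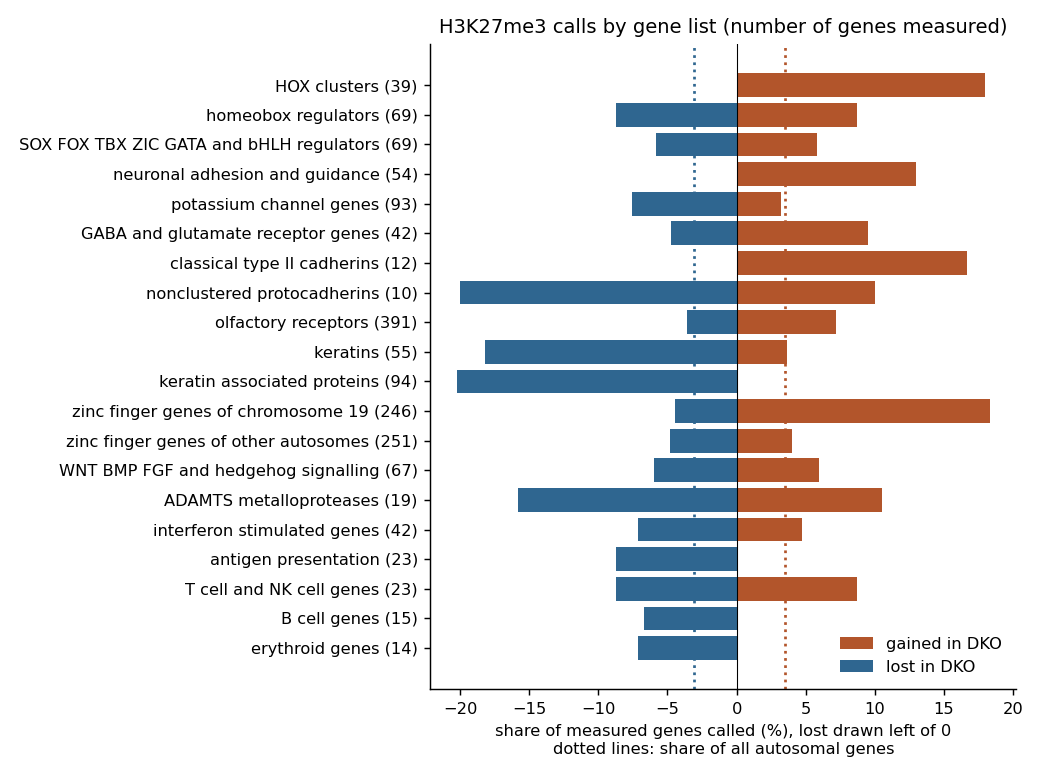
Share of measured genes in each list that gained (right) or lost (left of 0) H3K27me3 in DKO, in percent, with dotted lines at the shares over all autosomal genes (3.47% and 3.1%). Lists without a call are not drawn, and the number measured is in parentheses. Shares are of all measured genes, including those without the mark in sgControl, which could not lose it.

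Immune genes had calls in both directions. All 17 type I interferon genes and 34 of 42 interferon stimulated genes were at 0% in all 4 libraries, beside 76.1% of all autosomal genes. Of 18 nucleic acid sensing genes, of which 16 could gain the mark and 2 could lose it, 0 was called. IFI44L went from 0% to 100%, and its neighbour IFI44 from 0% and 22.9% to 100% (limma adjusted p = 0.105). OAS2, which makes the second messenger of RNase L, fell from 47.4% and 49.8% to 0% (limma adjusted p = 0.00411). MX1, an antiviral GTPase gene, had 80.7% and 35.2% in sgControl and 0% in DKO (limma adjusted p = 0.815). ISG20 was the remaining loss, so that 2 interferon stimulated genes (4.76%) gained and 3 (7.14%) lost the mark. Over all autosomal genes the shares were 3.47% and 3.1%. Of the 42, 40 could gain the mark and 3 could lose it. Of 23 antigen presentation genes, of which 5 could lose the mark, 2 (8.70%) lost it. They were HLA-DPA1 (100% to 0%) and HLA-DPB1 (65.0% and 70.8% to 0%), which encode the chains of a class II molecule. The bodies of these 2 genes overlap, so their losses are not separate. Over the 22 autosomes 592 of 3074 genes that could lose the mark did so.

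All 18 myeloid, 6 T cell and 5 B cell markers were free of the mark in all 4 libraries, so the lists do not tell these lineages apart, and the erythroid gene HBB was covered in all 4. Among T and NK cell genes 2 of 23 gained the mark, including LEF1 (0% to 96.3% in both), and 2 lost it, GATA3 (70.5% and 62.5% to 3.58% and 11.6%, limma adjusted p = 0.0600) and BCL11B (46.1% and 56.9% to 0%, limma adjusted p = 0.0712). RAG1 was called lost among 15 B cell genes (limma adjusted p = 0.134) and TAL1 among 14 erythroid genes (limma adjusted p = 0.176). None of 34 myeloid, 33 Polycomb, 23 H3K9 methylation or 17 housekeeping genes was called. Of these, 4 myeloid genes and 0 genes of the other lists could lose the mark. With 3.47% of all autosomal genes gained, lists of this size can hold no gain without differing from all genes. The genes EZH2, EED, SUZ12, KDM6B, SETDB1, SUV39H1 and SUV39H2 were at 0% in all libraries. The lists therefore cannot check the knockout of the targeted genes.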

How the data were processed

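H3K27me3 ChIP-seq of 2 sgControl and 2 DKO libraries was analysed, with SKO, H3K9me3 and SETDB1 lists beside it. Per the submitters' processing notes, the build was hg38 and the tools included SICER, deepTools 3.5.6, Trim Galore 0.6.10 and FastQC 0.12.1. The sources used here name no aligner and no SETDB1 peak caller. Drosophila chromatin was spiked in, per the labels' protocols, but no spike-in factor was used here. The deposited epic2 lists give, per library and domain, the authors' read count and their score, and the count is not scaled to depth. SETDB1 peaks carry a −log10 p-value, as deposited by the authors, which was not used beyond the peaks' positions. Domain edges lay on an 800 bp grid with gaps of at least 4000 bp.

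Coverage, 10 kb bins and gene bodies (RefSeq, GRCh38.p14) were computed with Python 3.11.15, numpy 2.4.6 and pandas 2.3.3 and drawn with matplotlib 3.10.9. Block counts per covered length were tested with edgeR 4.0.16 (TMM, quasi-likelihood), with DESeq2 1.42.0 as an alternative, and gene percentages with limma 3.58.1, in R 4.3.3, after a check on simulated data. The rule for named genes took, among called genes of at least 8000 bp, the 8 gained and 8 lost with the largest difference (4 each on chromosome 7), 2 each per gene list, the enzyme genes and the genes in the 3 longest runs; some of the items it takes are not reported here. Genes named outside it, among them the members of called clusters and of the longest runs on chromosome 7, were chosen after their values were seen. The members and 27 gene lists were chosen with earlier results of these data known.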

Additional observations from a re-analysis of the deposited data

Results flagged for a closer look

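Chromosome X, outside the autosomal comparison, carried far more H3K27me3 in DKO than in the control libraries. Domains spanned 35.8 and 35.7 Mb in sgControl and 77.1 and 74.4 Mb in DKO, a mean of 75.75 Mb, in 647 and 554 against 1429 and 1507 domains. By bins 36.8 Mb was gained, 31.7% of the control-unmarked length, and 1.67 Mb was lost. SKO libraries covered 68.1 and 67.1 Mb. Read density in bins kept in all 4 libraries was 1.08 times that of the median autosome, DKO over sgControl. H3K9me3 domains on chromosome X averaged 15.6 Mb in sgControl and 21.5 Mb in DKO.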

How the results depend on the processing

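Of 194 values of 20 results under other settings, 143 stayed within the spread or within 1.5 times the count and 51 moved. Most are counts, lengths or shares that cannot change sign. The order of gain and loss turned on chromosome 7 and by gene at equal covered length, and that of higher and lower blocks with all blocks. Of 595 values of 85 named genes, which were chosen for large differences, 13 missed the threshold (11 with the upper 50% of domains by score, 2 at equal covered length). No spike-in factor and 2 libraries per genotype limit what can be said of total amount and of p-values.

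At equal covered length the lost length was 120.64 Mb and, on chromosome 7, 12.88 Mb. A gene difference of 10 points gave 835 genes lost (66 on chromosome 7), and 50 points 300 (24). Promoters in place of bodies gave 334 gained and 294 lost, and 19 and 20 on chromosome 7. With the upper 50% of domains by score, DKO had 2078 more domains and 84.5 Mb more covered, against 4170.5 and 111.8 Mb. The gained length adjoining control bins was 26.7% with 5 kb bins, 39.0% with 20 kb bins and 34.8% to 36.5% leaving out 1 library. The lost length adjoining kept bins was 50.0% to 75.7% leaving out 1 library.

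The gained length in control H3K9me3 was 60.7% at 25% of a bin, 49.4% at 75%, 50.7% with the upper 50% and 53.6% to 54.9% leaving out 1 library. Its part where H3K9me3 was lost was 18.1%, 15.4% and 16.3% to 16.8% under the first 2 and the last of these. For lost length in control H3K9me3 the values were 33.3%, 25.7%, 23.2% and 26.5% to 28.1%. With all blocks, 1023 were higher and 1076 lower, and 104 lower on chromosome 7. Blocks stable at 90% gave 20 higher and 28 lower on chromosome 7. Leaving out 1 library gave 21 to 26 higher there.

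Replicate numbers share only a number: the replicate differences of sgControl and DKO correlated at r = 0.0053 over 19122 genes. With a replicate block limma called 272 genes gained and 193 lost, and 14 and 17 on chromosome 7, with fewer residual degrees of freedom by construction. With the block edgeR called 659 blocks higher and 638 lower, and 32 and 53 on chromosome 7. DESeq2 called 603 and 587, and 24 and 51. The cause of the other moves was not tested.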

Other observations

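Outside chromosome 7, neighbouring 10 Mb windows of other autosomes also departed together in H3K27me3 density, DKO over sgControl, on the log2 scale relative to the median window. On chromosome 6 the windows from 30 to 60 Mb had 0.64, 0.98 and 0.63, and H3K9me3 density there had 0.78, 0.61 and 0.11. On chromosome 18 the windows from 20 to 50 Mb had -0.49, -0.42 and -0.30, with -0.37, -0.09 and -0.08 for H3K9me3. The window from 60 to 70 Mb of chromosome 2 had 1.17 for H3K27me3 and 0.00 for H3K9me3. The input samples were not analysed here, so these densities are not corrected for copy number. These windows were chosen after their values were seen, and the kept bins in them span 0.48 to 6.16 Mb for H3K27me3.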
